A study of Homo sapiens with 60 samples.

Results

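The cytosolic ribosomal protein genes are 81 rows of a table of 60675 genes, of which 49 encode proteins of the large subunit (RPL) and 32 proteins of the small subunit (RPS). They were chosen by symbol: protein-coding genes named RPL or RPS with a number and an optional letter suffix, with RPLP0, RPLP1, RPLP2 and RPSA, and without the RPS6 kinases, RPS4Y1 and pseudogenes. The rule itself uses no expression value, though it was set with earlier results of these data known. The cells were HT29, an established human colorectal adenocarcinoma line from a cell bank, treated for 24 h with an extract or with vehicle. The extracts were prepared with 70% ethanol from 4 single herbs and 4 herbal formulas, each tested at 3 doses. Polygalae Radix (Polygala root) was given at 380, 76 and 15.2 µg/mL and Aucklandiae Radix (Aucklandia root) at 370, 74 and 14.8 µg/mL, with 2 libraries per dose. Another 4 extracts, Menthae Herba (mint herb), Saposhnikoviae Radix (Saposhnikovia root), Saengmaek-san (a formula) and Guibi-tang (a formula), were given at 500, 100 and 20 µg/mL with 3 libraries per dose. The formula Soyo-san had 2 libraries and the formula Okbyeongpung-san 1 library per dose, at the same 3 doses. The vehicle had 3 libraries, and its DMSO is given as 0.1% in the sample labels and 2% in the design text. Wortmannin, a control in the design text, was not analysed here. Whether replicates came from different cultures is not stated in the labels, and every p-value therefore rests on library-to-library spread that could be technical.

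Each ribosome carries 1 copy of most of these proteins, and cells keep their synthesis in balance. Their mRNAs are among the most abundant in dividing cells and carry a terminal oligopyrimidine (TOP) tract, a run of C and T letters that begins at the cap. Through this tract the mTORC1 kinase pathway and the RNA-binding protein LARP1 set how much of the mRNA is translated and how stable it is. Many of the genes also carry small nucleolar RNAs (snoRNAs), guides of ribosomal RNA modification, in their introns. Several ribosomal proteins act outside the ribosome as well, such as RPL5, RPL11 and RPL23, which bind the p53 regulator MDM2.

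The start of a few of these genes is shown because most of the family shares the TOP tract, while some members, RPS27L among them, have no such run in this annotation. Each line holds 30 bases of the RefSeq annotation of GRCh38.p14, 10 before the annotated start and 20 from it, on the gene's own strand, 5′ to 3′. Capitals mark the longest unbroken run of C or T that reaches the start, where it has 7 or more bases.
RPL13A: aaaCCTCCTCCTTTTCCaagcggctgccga
RPS3: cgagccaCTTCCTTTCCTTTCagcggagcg
RPL22: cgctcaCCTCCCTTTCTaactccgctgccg
RPS6: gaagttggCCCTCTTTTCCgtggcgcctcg
RPLP0: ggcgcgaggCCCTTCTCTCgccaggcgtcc
RPS27: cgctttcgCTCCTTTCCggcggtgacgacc
RPS27L: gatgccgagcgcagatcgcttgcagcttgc
These windows lie at chr19:49487598-49487627 (plus strand) for RPL13A, chr11:75399508-75399537 (plus) for RPS3 and chr1:6199576-6199605 (minus) for RPL22. Those of RPS6, RPLP0 and RPS27 lie at chr9:19380217-19380246 (minus), chr12:120201092-120201121 (minus) and chr1:153990752-153990781 (plus), and that of RPS27L at chr15:63157458-63157487 (minus). Run lengths here also count bases before the annotated start, which lie outside the annotated mRNA. The run is 14 bases long in RPL13A and RPS3 and 11 in RPL22 and RPS6. It is 10 bases long in RPLP0 and 9 in RPS27. RPS27L, a p53-induced homologue of RPS27, has a run of 1 base there. Of the 64 members with an entry in the RefSeq start table, 50 (78.1%) had at least 1 start with a run of 7 or more, on the gene's strand, overlapping the 2 bases before or the first 5 bases from the start. Among all 27305 gene symbols of that table, 16% had one.

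Of the 81 genes, 78 were expressed above the count filter and were tested, 46 of the large and 32 of the small subunit. The other members are tissue-restricted paralogues: RPL10L, known from testis, had no count in any library, RPL39L reached at most 0.0552 CPM (counts scaled to a common library size with TMM factors), and RPL3L, known from muscle, at most 0.278 CPM. Per kilobase of the GENCODE principal transcript, the vehicle level was 2387 CPM per kb for RPS2 and 2019 CPM per kb for RPL13A. Ribosomal protein genes have many processed pseudogenes, and the authors' counting could divide reads among near-identical copies, so absolute levels are uncertain to that extent.

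Library totals ranged from 18690501 to 36796414 counts in the 59 libraries used for levels. Most colon epithelial markers were high, with a median of 6490 CPM for KRT8 and 525 CPM for EPCAM. CDH1, KRT18, KRT20, VIL1 and LGALS4 had medians from 156.5 to 4049 CPM. CDX2 and CDX1, of the same list, were low, with medians of 3.965 and 0.697 CPM. One low-dose library, labelled Saposhnikoviae Radix low replicate 2, was left out by the choice of groups and differed from all others: 16.8% of its counts came from ribosomal protein genes and 3.33% from mitochondrial genes. With that library in the fit, the estimated dispersion was 0.0268, against 0.00263 without it, and most of the calls below were lost (4 in place of 54 for Aucklandiae Radix).

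In the vehicle libraries ribosomal protein genes made up 4.99, 5.64 and 5.90% of all counts. With Aucklandiae Radix the share was 5.03 and 5.14% at the low dose, 4.90 and 5.00% at the medium dose and 4.06 and 3.83% at the high dose, the lowest values of the 59 libraries. With Guibi-tang it was 4.99, 5.2 and 5.83% at the low dose, 5.10, 5.18 and 5.14% at the medium dose and 4.79, 4.77 and 4.80% at the high dose. The high doses of both extracts lay below every vehicle library, while the groups of the remaining extracts overlapped the vehicle range or, for 1 Saposhnikoviae Radix low, 1 Saposhnikoviae Radix high and 1 Soyo-san high library, lay just under it, as did 1 Aucklandiae Radix medium library. Libraries of a group often differed across the whole family at once: Guibi-tang low replicate 3 held the highest value of its group in 75 of the 78 genes, Vehicle replicate 3 in 67, while Polygalae Radix high replicate 3 held the lower value in 73 and Aucklandiae Radix high replicate 3 in 75. CPM is a share of a library, so a change in ribosomal protein mRNA and a change in other RNA cannot be told apart. It measures neither the amount per cell nor the number of cells.

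**Figure D1:**
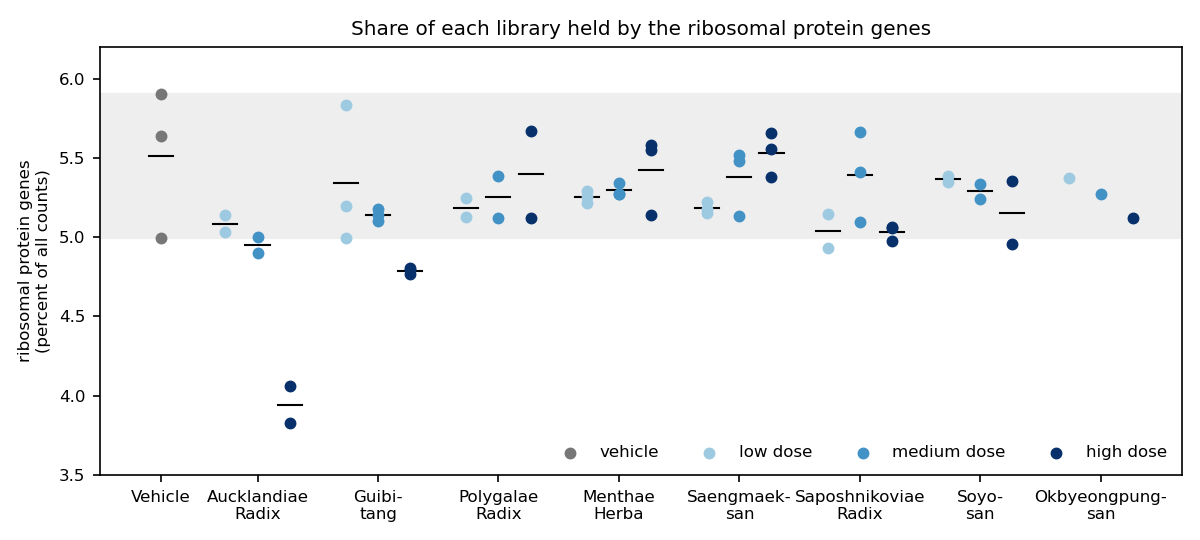
Percent of all counts that came from the 81 ribosomal protein genes in each of 59 libraries (points), by extract and dose (low, medium and high from left to right), with group means as lines and the vehicle range shaded. The 2 Aucklandiae Radix high libraries sit at 4.06 and 3.83%, and the 3 Guibi-tang high libraries between 4.77 and 4.80%, below the vehicle libraries at 4.99 to 5.90%.

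The main question for each extract was whether the high dose changed these mRNAs against the low dose of the same extract, a comparison that uses no vehicle library. A gene counts as called at an adjusted p under 0.05 in edgeR's quasi-likelihood test (Benjamini-Hochberg adjustment, 16978 genes), which is the adjusted p given throughout. Values after ± beside a log2 fold change are standard errors.

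At the high dose of Aucklandiae Radix the family was lower. Of the 78 genes, 54 fell and none rose, beside 29.1% of all genes that fell and 29.6% that rose in this comparison, and the median log2 fold change was -0.23 against -0.02 over all genes. All but 3 genes had a negative estimate, and in 70 the 2 high libraries both lay below the 2 low libraries, beside 40.3% of all genes. The fall was spread over both subunits, with 34 of 46 large-subunit genes (median -0.24) and 20 of 32 small-subunit genes (median -0.21). The direction was the same under the other scalings, with 49 and 69 genes lower.

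RPL13A, a large-subunit protein that also joins the GAIT complex for translational silencing, showed the largest fall. Its level was 1319 and 1251 CPM at the high dose, against 2217 and 2194 CPM at the low dose, a log2 fold change of -0.78 ± 0.07 (adjusted p = 1.01e-12). The medium dose, with 1934 and 2057 CPM, lay between these groups without touching either. RPL3, which helps to shape the peptidyl transferase centre, had 674 and 676 CPM at the high dose and 1017 and 1074 CPM at the low dose (log2 fold change -0.63 ± 0.06, adjusted p = 8.01e-12). RPS2, a small-subunit protein near the mRNA entry channel, had 1373 and 1267 CPM at the high dose and 1973 and 2025 CPM at the low dose (-0.60 ± 0.07, adjusted p = 2.94e-10). For both genes each high library was below each low library and the medium dose lay near the low dose, at 968 and 1020 CPM for RPL3 and 1965 and 1967 CPM for RPS2. The next largest falls were those of RPS3, another protein of the entry channel (-0.47), RPS9 (-0.45), RPL10A (-0.45), RPL23 (-0.43) and RPL22 (-0.43). RPL22, whose paralogue is RPL22L1, had 349.7 and 316 CPM at the high dose, against 446 and 453 CPM at the low dose.

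The stalk proteins, which recruit translation factors to the large subunit, were called in part. RPLP0, the base of the stalk, had 979 and 922 CPM at the high dose, against 1241 and 1253 CPM at the low dose (-0.39 ± 0.06, adjusted p = 5e-07). Its partner RPLP1 had 777.5 and 743 CPM at the high dose and 857 and 890.5 CPM at the low dose (-0.20 ± 0.06, adjusted p = 0.00247). RPLP2 had 434 and 399.8 CPM at the high dose and 437 and 436 CPM at the low dose, and its estimate of -0.07 ± 0.07 did not pass (adjusted p = 0.431). Each high library of RPLP0 and RPLP1 was below each low library, and so were both of RPLP2, by a small margin.

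Among proteins with a known role in signalling, RPS6, the substrate of the S6 kinases, had 1022 and 949.6 CPM at the high dose, against 1259 and 1236 CPM at the low dose (-0.34 ± 0.06, adjusted p = 7.33e-06). RPSA, the laminin receptor, fell by 0.35 on the log2 scale (adjusted p = 1.33e-07). RPL5 fell by 0.29 (adjusted p = 0.000172) and RPL11 by 0.23 (adjusted p = 0.0239). Both bind MDM2 together with 5S ribosomal RNA. RPL10, which joins the large subunit last, fell by 0.24, and RPL41, the shortest member, by 0.29. RPL41 had 682 and 534 CPM at the high dose, against 734 and 757 CPM at the low dose, and the 2 high libraries stood further apart than the group means.

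Not all members took part. RPS27A, made as a fusion with ubiquitin, had 507 and 452 CPM at the high dose and 518 and 485 CPM at the low dose (-0.06 ± 0.09, adjusted p = 0.569). RPL39 had 284 and 271 CPM at the high dose, against 285 and 283 CPM at the low dose (-0.03 ± 0.10, adjusted p = 0.799). The high and low groups overlapped in both genes. The 3 genes with a positive estimate, named here after their values were seen, were RPS21 (0.09), RPS13 (0.07) and RPS25 (0.02), none of which passed. RPS27, which has a marked run of C and T above, gave -0.12 ± 0.09 (adjusted p = 0.25). RPS27L, whose window shows none, fell by 0.19 ± 0.07 (adjusted p = 0.0221), with 44.7 and 41.7 CPM at the high dose and 48.6 and 50.2 CPM at the low dose.

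The size of the fall rests in part on 1 library: 25 genes were called without Aucklandiae Radix high replicate 3 (median -0.17) and 55 without replicate 2 (median -0.27), all lower. The same libraries held summed blood cell markers of 47.6 and 52.8 CPM at the high dose, against 8.33 and 7.45 CPM at the low dose, carried by CD68, while PTPRC, CD3E and HBB did not exceed 0.117 CPM in any library. Summed endothelial markers were 7.76 and 8.23 CPM at the high dose and 1.17 and 1.33 CPM at the low dose, carried by PECAM1, while VWF, CDH5 and KDR did not exceed 0.369 CPM. Mitochondrial genes took 6.52 and 6.19% of counts at the high dose and 11.0 and 9.82% at the low dose. The part of these markers and genes in the result was not tested.

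**Figure D2:**
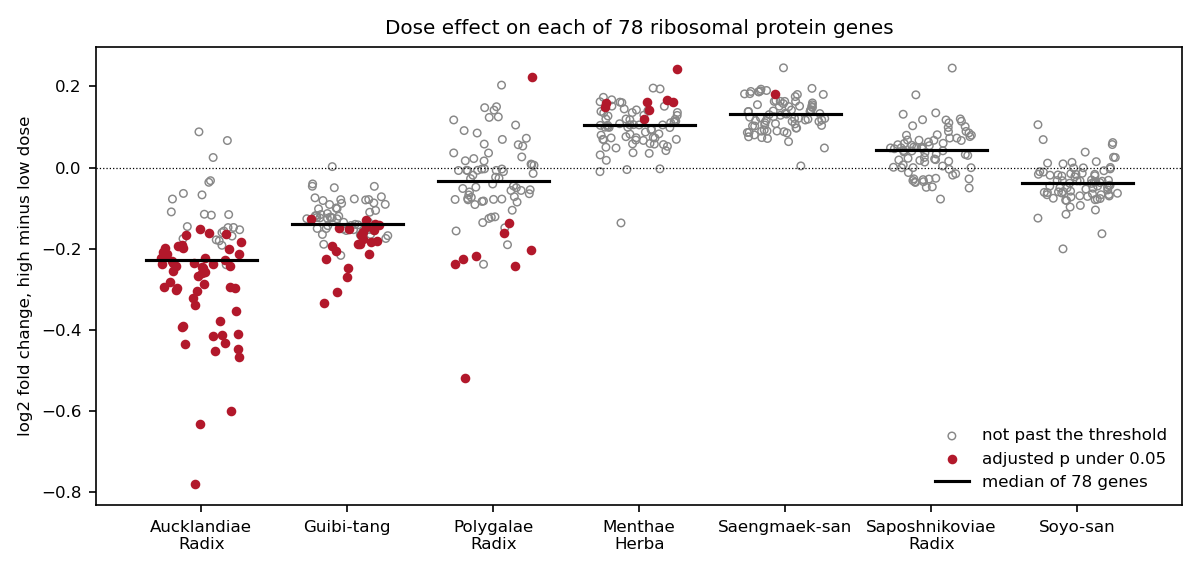
Log2 fold change of the high over the low dose for each of 78 ribosomal protein genes (points, filled where adjusted p is under 0.05), by extract, with the median as a line. The median lies at -0.23 for Aucklandiae Radix, -0.14 for Guibi-tang, 0.10 for Menthae Herba and 0.13 for Saengmaek-san. It lies at -0.03 for Polygalae Radix, where it turns to 0.05 when libraries are scaled by total counts.

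Members called with Guibi-tang were also all lower. At the high dose 23 of the 78 genes fell and none rose, beside 9.08% of all genes that fell and 8.84% that rose, with a median of -0.14 and 77 negative estimates. In 43 genes all 3 high libraries lay below all 3 low libraries, beside 15.9% of all genes. RPL13A again showed the largest fall, with 1918, 1999 and 1781 CPM at the high dose, against 2303, 2287 and 2589 CPM at the low dose (-0.33 ± 0.06, adjusted p = 2.92e-05). RPL28, a large-subunit protein, had 741, 688 and 687 CPM at the high dose and 958, 810.3 and 846 CPM at the low dose (-0.31 ± 0.09, adjusted p = 0.0157). RPS24, one of the proteins mutated in Diamond-Blackfan anaemia, had 777, 707.5 and 704 CPM at the high dose and 844, 823 and 972 CPM at the low dose (-0.27 ± 0.07, adjusted p = 0.00367). In all 3 genes the high and low libraries were separate.

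RPS27L fell by 0.25 ± 0.06 with Guibi-tang (adjusted p = 0.0022), from tight groups of 42.6, 42.5 and 43.9 CPM at the high dose and 50.01, 50.7 and 52.5 CPM at the low dose. RPL12, at the base of the stalk, fell by 0.22, RPS3 by 0.21 and RPS15A by 0.19. RPLP0 had 1167, 1174 and 1205 CPM at the high dose, against 1228, 1260 and 1413 CPM at the low dose (-0.14 on the log2 scale, adjusted p = 0.0492). The count depends on Guibi-tang low replicate 3, whose family level was high: without it 5 genes were called, all lower, with a median of -0.07. Without high replicates 1, 2 and 3 it was 11, 11 and 9. RPL13A, RPL12, RPS3 and RPS27L passed in each fit without 1 library, whereas RPL28, RPS24 and RPS15A missed the threshold in at least 1. Summed blood cell markers were 11.1, 11.7 and 11.3 CPM at the high dose and 8.50, 7.84 and 5.52 CPM at the low dose. Summed endothelial markers were 2.04, 1.598 and 1.44 CPM at the high dose and 1.26, 1.13 and 1.37 CPM at the low dose, and the part of both lists in the result was not tested.

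Of the 23 genes that fell with Guibi-tang, 22 also fell with Aucklandiae Radix. That is 95.7% of the Guibi-tang calls and 40.7% of the Aucklandiae Radix calls. With Aucklandiae Radix 69.2% of the tested members fell, beside 29.1% of all genes, and the overlap was counted among members only. Across the 78 genes the estimates of both extracts had a Pearson correlation of 0.47 and a Spearman correlation of 0.34, a description over genes that share libraries.

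**Figure D3:**
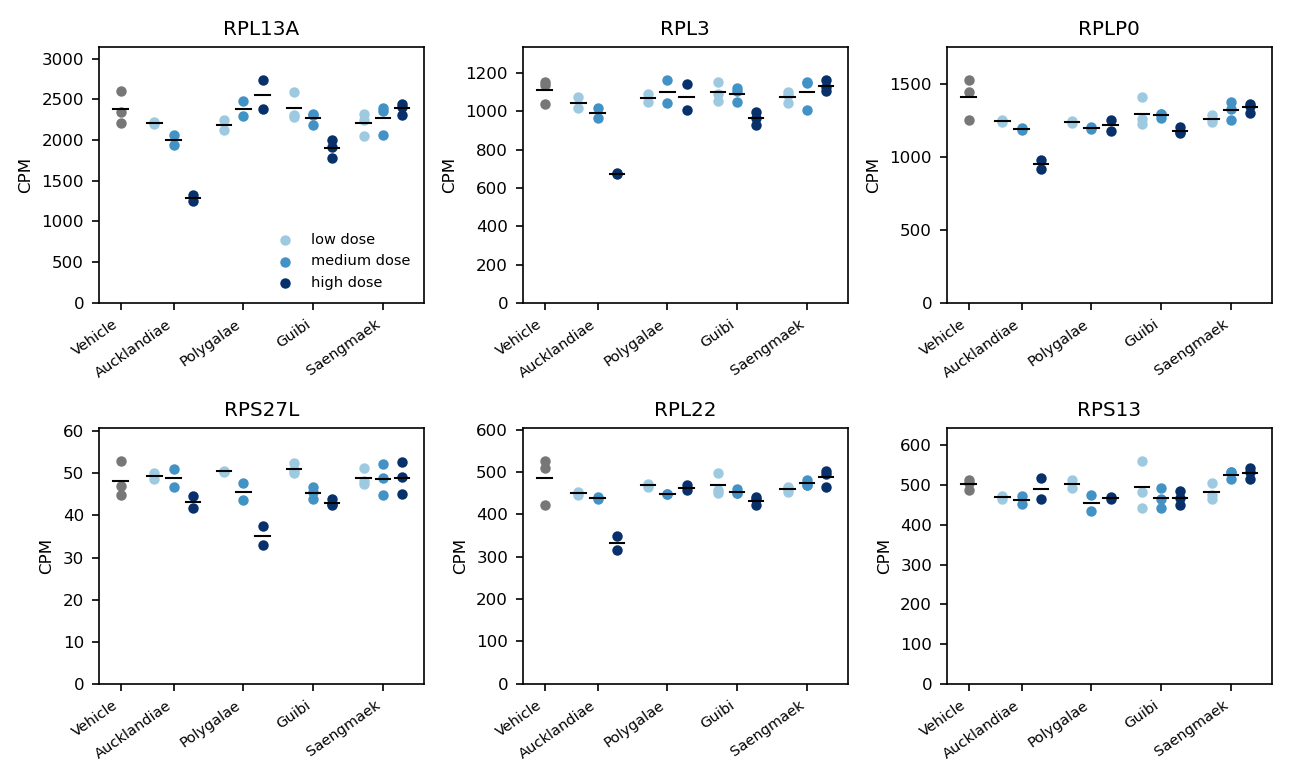
CPM of 6 genes in each library (points) with group means (lines), for the vehicle and for 4 extracts at low, medium and high dose from left to right. RPL13A, RPL3, RPLP0 and RPL22 are lowest at the high dose of Aucklandiae Radix, RPS27L at the high dose of Polygalae Radix with 33.0 and 37.5 CPM, and RPS13, added after its values were seen, shows no such drop.

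Polygalae Radix changed single members in both directions. At the high dose 8 of the 78 genes fell and 1 rose, beside 16% of all genes that fell and 13.3% that rose, so the share of members was below that of all genes in either direction. The family median of -0.03 turned to 0.05, with 7 genes higher and 2 lower, when libraries were scaled by total counts alone. It also turned without high replicate 3, where 8 genes were higher and 3 lower. The clearest change was in RPS27L, with 33.0 and 37.5 CPM at the high dose, against 50.4 and 50.6 CPM at the low dose (-0.52 ± 0.08, adjusted p = 5.23e-07), and with 43.6 and 47.8 CPM at the medium dose between them. Its 3 dose groups did not overlap.

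RPL13A moved the other way from its course with Aucklandiae Radix: it rose with Polygalae Radix, with 2732 and 2382 CPM at the high dose, against 2251 and 2128 CPM at the low dose (0.22 ± 0.07, adjusted p = 0.0143). The groups did not overlap, but the gap between them was smaller than that between the 2 high libraries, and the call was lost without high replicate 2 (log2 fold change 0.13) or low replicate 3 (0.18). The genes that fell were RPL5 (-0.24), RPL6 (-0.24), RPS4X (-0.23), RPL30 (-0.22), RPSA (-0.20), RPL4 (-0.16) and RPL15 (-0.14). RPL6 had 788 and 777 CPM at the high dose and 926 and 918 CPM at the low dose, and RPS4X, the X-linked copy of a gene pair on the sex chromosomes, had 921.5 and 935 CPM at the high dose and 1077 and 1094 CPM at the low dose. Both groups of each gene were tight and apart. RPS27L and RPL6 passed in each fit without 1 library and under total count scaling, whereas RPL5, RPS4X, RPL30, RPSA, RPL4 and RPL15 missed the threshold under total count scaling. Colon epithelial markers summed to 8882 and 7869 CPM in these high libraries and 12141 and 11997 CPM in the low ones, and their part was not tested.

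With Menthae Herba 8 of the 78 genes rose at the high dose and none fell, beside 12% of all genes that rose and 11.6% that fell, so the share of members was no larger than that of all genes. The median was 0.10, with 74 positive estimates, and in 44 genes the high libraries all lay above the low ones, beside 21% of all genes. RPL38, a large-subunit protein that in the mouse is needed for translation of Hox mRNAs, had 239.7, 244 and 229 CPM at the high dose and 197, 205 and 201 CPM at the low dose (0.24 ± 0.09, adjusted p = 0.0468). The groups were separate. The others were RPS7 (0.17), RPL18 (0.16), RPS16 (0.16), RPL17 (0.16), RPL8 (0.15), RPS13 (0.14) and RPSA (0.12). The count was 0 to 13 when 1 library was left out in turn, with 13 without high replicate 1 and 0 without low replicate 1, high replicate 2 or high replicate 3, and under total count scaling no gene rose and 1 fell.

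Saengmaek-san showed a small shift across the whole family in which 1 gene passed. All 78 estimates were positive, with a median of 0.13, and in 60 genes all 3 high libraries lay above all 3 low libraries, beside 10.8% of all genes. RPLP1 was the gene that passed, beside 0.412% of all genes that rose and 0.436% that fell, with 944, 957 and 1008 CPM at the high dose and 865, 815 and 888 CPM at the low dose (0.18 ± 0.05, adjusted p = 0.0484). It did not pass in any fit without 1 library, where its adjusted p was 0.0535 to 0.312. At an unadjusted p under 0.05 there were 42 of the 78 genes, beside 13% of all genes. Summed over the family, the level was 55206 ± 1674 CPM at the high dose and 50651 ± 405 CPM at the low dose (SD, n = 3 each).

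Saposhnikoviae Radix and Soyo-san called no member at the high dose, beside 0.289% and 2.49% of all genes, with 2 genes each at an unadjusted p under 0.05 (7.58% and 13.2% of all genes) and 0 called by DESeq2. The medians were 0.04 for Saposhnikoviae Radix, whose low dose rests on 2 libraries, and -0.04 for Soyo-san. Okbyeongpung-san, with 1 library per dose and no test, held 5.37, 5.27 and 5.12% of counts in the family at the low, medium and high dose.

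At the medium dose no member was called against the low dose with any of the 7 extracts tested, by edgeR or by DESeq2. Of all genes, 4.95% were called with Polygalae Radix and 2.6% with Aucklandiae Radix, 0.118% with Guibi-tang, 0.0294% with Menthae Herba and 0% with Saposhnikoviae Radix, Saengmaek-san and Soyo-san. At an unadjusted p under 0.05 there were 22 members with Saposhnikoviae Radix, beside 9.25% of all genes (median 0.11, 77 of 78 positive), and 4 with Saengmaek-san, beside 4.44%. The other counts were 3 with Polygalae Radix, beside 17.1%, 1 each with Aucklandiae Radix and Guibi-tang, beside 11.6% and 6.03%, and 0 with Menthae Herba and Soyo-san, beside 6.11% and 2.97%.

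**Figure D4:**
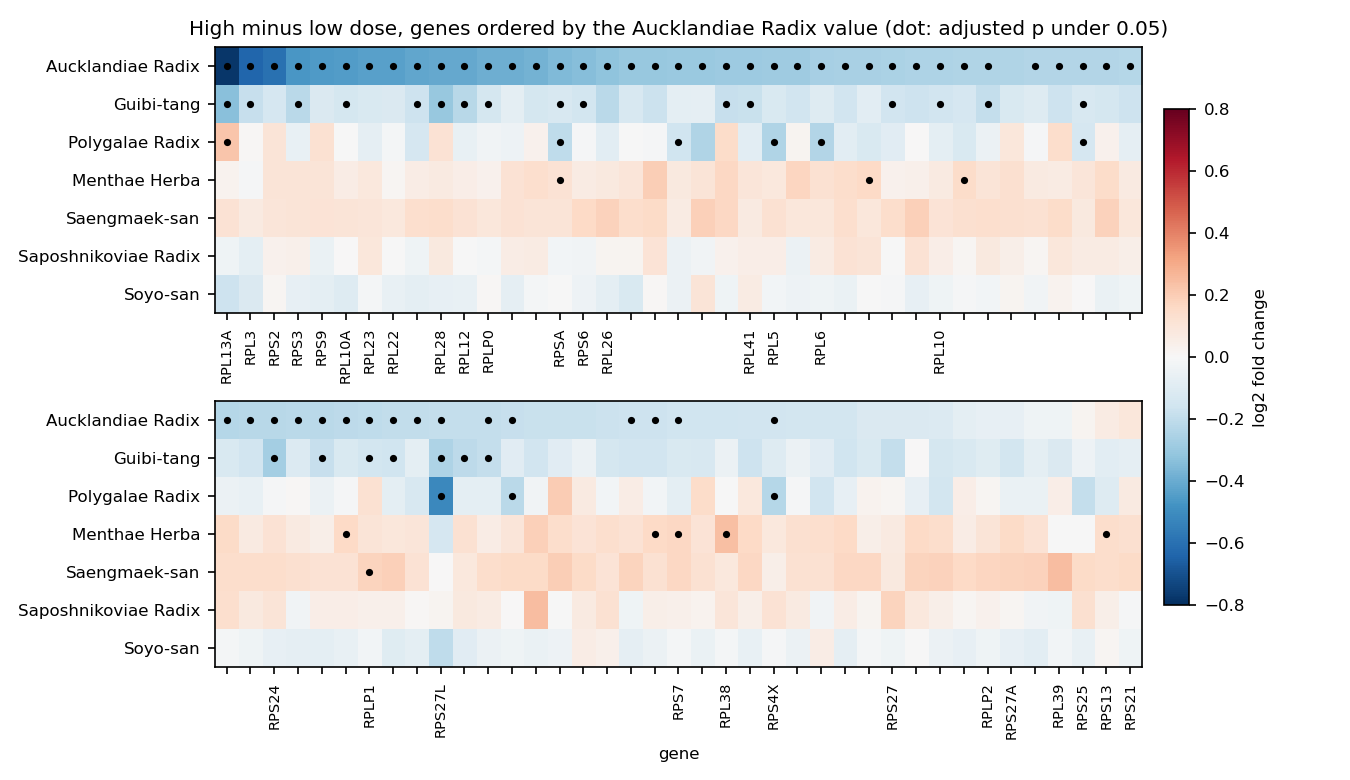
Log2 fold change of the high over the low dose (colour) for 78 ribosomal protein genes (columns, ordered by the Aucklandiae Radix value, in 2 rows of panels, with some of the genes named in the text labelled) and 7 extracts. Dots mark adjusted p under 0.05: 54 for Aucklandiae Radix, 23 for Guibi-tang, 9 for Polygalae Radix, 8 for Menthae Herba and 1 for Saengmaek-san. The Polygalae Radix median of -0.03 turns to 0.05 under total count scaling.

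Whether the dose effects of extracts differ was tested directly for 3 pairs whose libraries carry the same set number in their names. Between Aucklandiae Radix and Polygalae Radix the high-minus-low effect differed in 22 of 78 genes, 21 lower and 1 higher with Aucklandiae Radix, beside 22.6% lower and 24% higher among all genes. With libraries scaled by total counts 62 members were called, all lower. That scaling also moved the median dose effect over all genes, from -0.02 to -0.11 with Aucklandiae Radix and from -0.01 to 0.08 with Polygalae Radix. RPL13A differed most (-1.0035 ± 0.10, adjusted p = 2.79e-11), followed by RPS2 (-0.70), RPL3 (-0.64) and RPS9 (-0.58), and RPS27L was the gene on the other side (0.33 ± 0.11, adjusted p = 0.00978). The RPS27L call was lost under total count scaling (0.15, adjusted p = 0.231) and without replicate 2 of either high dose. The count of lower genes lies near the share among all genes, and 69 of the 78 differences were negative, with a median of -0.17.

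Between Guibi-tang and Saengmaek-san the effect differed in 35 of 78 genes, all lower with Guibi-tang, beside 3.63% of all genes that were lower and 3.57% that were higher. All 78 differences were negative, with a median of -0.26. RPL13A differed by -0.45 ± 0.08 (adjusted p = 0.000201), RPL28 by -0.44 ± 0.13 (adjusted p = 0.0286), RPS24 by -0.41 ± 0.10 (adjusted p = 0.00469) and RPL26, which promotes p53 translation, by -0.40 ± 0.12 (adjusted p = 0.0273). For RPL26 the level was 389, 380.5 and 369 CPM at the Guibi-tang high dose and 437, 404 and 482.5 CPM at its low dose. With Saengmaek-san it was 448, 427 and 479 CPM at the high dose and 401, 392 and 397 CPM at the low dose. The groups were separate in both extracts and in opposite order, though RPL26 passed in neither alone (adjusted p = 0.0671 with Guibi-tang and 0.327 with Saengmaek-san). Without Guibi-tang low replicate 3 the count was 13, and without Guibi-tang low replicate 1 it was 48. Between Menthae Herba and Saposhnikoviae Radix no member differed by edgeR or DESeq2, beside 3.59% of all genes, with 1 gene at an unadjusted p under 0.05, beside 15.8% of all genes.

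Against the vehicle the members called were lower in most cases. The counts at the high dose were 70 lower with Aucklandiae Radix, 61 with Guibi-tang, 41 with Polygalae Radix, 21 with Saposhnikoviae Radix and 19 with Soyo-san, beside 31%, 14.7%, 19.6%, 5.01% and 9.24% of all genes that were lower. None was higher with these 5 extracts, beside 31%, 14.7%, 16.8%, 5.17% and 8.44% of all genes. Menthae Herba had 3 higher and 2 lower, beside 13.7% and 14.5% of all genes, and Saengmaek-san 2 higher and 4 lower, beside 5.79% and 6.16%. These comparisons share the same 3 vehicle libraries, which have a library name prefix of their own, so an extract effect and a difference between library sets cannot be told apart. The low doses lay below the vehicle too, with a median log2 ratio of mean CPM of -0.08 to -0.17. Without Vehicle replicate 3 the genes called were 66 for Aucklandiae Radix, 35 for Guibi-tang, 15 for Polygalae Radix (14 lower, 1 higher), 1 for Soyo-san, 0 for Saposhnikoviae Radix, and 2 each, both higher, for Menthae Herba and Saengmaek-san. Without Vehicle replicate 1 they were 72 for Aucklandiae Radix, 66 for Guibi-tang, 59 for Polygalae Radix, 45 for Saposhnikoviae Radix, 39 for Soyo-san, 26 for Saengmaek-san (23 lower) and 22 for Menthae Herba (21 lower). For Polygalae Radix the count of 41 was 12 under total count scaling. Without Polygalae Radix high replicate 3 it was also 12, and without Saengmaek-san high replicate 1 that extract's count was 1.

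RPL13A against the vehicle had 1285 ± 48.1 CPM at the high dose of Aucklandiae Radix (n = 2) and 2384 ± 204 CPM in the vehicle (n = 3), a log2 fold change of -0.89 ± 0.07 (adjusted p = 1.71e-15). RPS2 gave -0.83 and RPL3 -0.72. For RPS27L against the vehicle the fall was 0.45 with Polygalae Radix (adjusted p = 9.16e-07).

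The genes around the family were read from lists that were set with earlier results of these data known. Of 7 ribosomal proteins outside the symbol rule, 3 rose and 1 fell with Aucklandiae Radix (median 0.06), beside 29.6% and 29.1% of all genes. Without 1 library in turn, that median was -0.03 to 0.14. With Polygalae Radix none rose and 2 fell (median -0.01), beside 13.3% and 16% of all genes. With Guibi-tang none rose and 1 fell (median -0.03), beside 8.84% and 9.08%. RACK1, a scaffold on the small subunit, was the gene that fell with Aucklandiae Radix (-0.41, adjusted p = 1.85e-09). It also fell with Polygalae Radix (-0.37) and Guibi-tang (-0.15). FAU, which encodes RPS30 as a ubiquitin-like fusion, rose with Aucklandiae Radix (0.25, adjusted p = 0.0109) and fell with Polygalae Radix (-0.22, adjusted p = 0.0482), and this difference passed as such (0.47 ± 0.12, adjusted p = 0.00126). With Menthae Herba 5 of the 7 rose, among them RPL22L1 (0.30) and RPL7L1 (0.22), and none fell. Among all genes 12% rose and 11.6% fell in that comparison. Without 1 library in turn, 1 to 5 of the 7 rose.

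Of 16 other translation genes with TOP mRNAs, 10 fell and 2 rose with Aucklandiae Radix (median -0.24), 7 fell and none rose with Guibi-tang (-0.12), and 7 fell and 1 rose with Polygalae Radix (-0.14). Among all genes 29.1% fell and 29.6% rose with Aucklandiae Radix, 9.08% fell and 8.84% rose with Guibi-tang, and 16% fell and 13.3% rose with Polygalae Radix, with medians of -0.02, -0.0025 and -0.01. Without 1 library in turn, 3 to 6 of the 16 fell with Guibi-tang, and the Polygalae Radix median of the list was -0.18 to -0.08. HNRNPA1, an RNA-binding protein, had 622.5 ± 17.3 CPM at the high dose of Aucklandiae Radix and 1238 ± 14.3 CPM at the low dose (SD, n = 2 each), a log2 fold change of -0.99. PABPC1, the poly(A)-binding protein, fell by 0.59. EEF1A1, the elongation factor that brings transfer RNA to the ribosome, rose by 0.38 with Aucklandiae Radix and fell by 0.42 with Polygalae Radix, a difference of 0.80 ± 0.07 (adjusted p = 1.38e-12). EEF2, the translocation factor, fell with both, by 0.39 and 0.73.

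The 12 snoRNA host genes, non-coding genes whose introns hold snoRNAs as those of many ribosomal protein genes do, moved in opposite directions with these extracts. With Aucklandiae Radix 8 fell and none rose (median -0.34), beside 29.1% and 29.6% of all genes. With Polygalae Radix 9 rose and none fell (median 0.28), beside 13.3% and 16% of all genes. The difference of the dose effects passed in 10 of 12, all lower with Aucklandiae Radix, beside 22.6% of all genes that were lower, and the medians kept their sign under both other scalings. SNHG29 had 118 ± 5.29 CPM at the high dose of Aucklandiae Radix and 188 ± 1.403 CPM at the low dose, and 226 ± 13.8 CPM at the high dose of Polygalae Radix and 191 ± 1.34 CPM at the low dose (SD, n = 2 each). EPB41L4A-AS1 fell by 0.58 and rose by 0.53. With Guibi-tang 6 fell and none rose (median -0.13), beside 9.08% and 8.84% of all genes, and without 1 library in turn 2 to 6 fell.

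**Figure D5:**
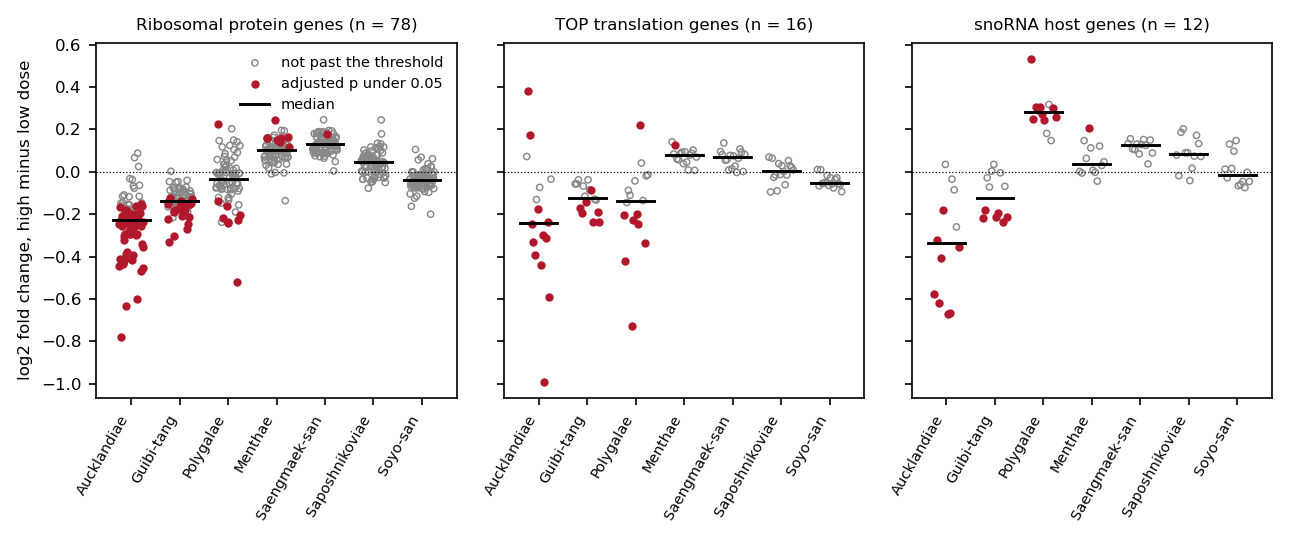
Log2 fold change of the high over the low dose for the ribosomal protein genes and 2 further gene lists, by extract. Points are genes, filled where adjusted p is under 0.05, and lines are medians. The snoRNA host genes have a median of -0.34 with Aucklandiae Radix and 0.28 with Polygalae Radix, while the median of the ribosomal protein genes with Polygalae Radix is -0.03 and turns to 0.05 under total count scaling.

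Of 16 genes of mTORC1 signalling and TOP mRNA control, 8 rose and 5 fell with Aucklandiae Radix, beside 29.6% and 29.1% of all genes, so the share that fell was near that of all genes. With Polygalae Radix 5 rose and 5 fell, beside 13.3% and 16%, and with Guibi-tang 1 rose and 3 fell, beside 8.84% and 9.08%. The medians were 0.09, 0.04 and 0.05. Without 1 library in turn, the Polygalae Radix median was 0.02 to 0.06, and with Guibi-tang 0 to 3 rose and 2 to 3 fell. DDIT4, an inhibitor of mTORC1, had 36.7 ± 1.24 CPM at the high dose of Aucklandiae Radix and 12.4 ± 0.17 CPM at the low dose (SD, n = 2 each; log2 fold change 1.57). It fell with Polygalae Radix (-0.42) and Guibi-tang (-0.50). SESN2, another inhibitor, rose by 0.86 with Aucklandiae Radix, and fell by 0.28 with Polygalae Radix and 0.25 with Guibi-tang. MTOR itself fell by 0.22 with Aucklandiae Radix and by 0.73 with Polygalae Radix, while LARP1 rose by 0.41 with Polygalae Radix and did not pass with Aucklandiae Radix (adjusted p = 0.961). Of 11 chaperones and importers of ribosomal proteins, 6 rose and none fell with Menthae Herba (median 0.17), beside 12% and 11.6% of all genes, among them the importer IPO5 (0.23) and the RPL3 chaperone GRWD1 (0.22). With Aucklandiae Radix 2 rose and 4 fell (median -0.01), beside 29.6% and 29.1% of all genes. AAMP (0.41) and BCCIP (0.40), known as ribosomal protein chaperones, were the genes that rose. The importers KPNB1 (-0.60), IPO9 (-0.52) and IPO5 (-0.29) and the RPS26 chaperone TSR2 (-0.28) fell.

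Some properties of the members did not enter their choice. The genes lay on 21 chromosomes, with 12 on chromosome 19. In the annotation 28 of the 78 tested members hold a snoRNA gene on their own strand. RPL13A, RPL3, RPS2, RPS3 and RPL23 are among them, while RPS9, RPL10A and RPL22 are not. With Aucklandiae Radix 20 of these 28 hosts fell (median -0.26) and 34 of the other 50 members (median -0.22), beside 29.1% of all genes. With Guibi-tang 10 of the hosts and 13 of the others fell, beside 9.08% of all genes, with a median of -0.14 in both. Over the 70 tested genes with a principal transcript, the Aucklandiae Radix estimate had a Pearson correlation of -0.39 with the log2 vehicle level and of -0.16 with log2 transcript length, as a description across genes of the same libraries.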

How the data were processed

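HT29 libraries were made with a directional MGIEasy kit and sequenced as 100-base paired-end reads, per the labels' protocols. Per the submitters' processing notes, FastQC 0.11.9, Trim Galore 0.6.5, STAR 2.7.3a and RSEM 1.3.3 were used with hg38 (GRCh38), while neither the annotation release nor RSEM's strand option is given in the sources used here. The authors deposited RSEM expected counts per gene, of which 10.04% of the values were not whole and were rounded. Symbols, gene types and coordinates came from GENCODE 29, and start sequences from RefSeq.

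The main fit used edgeR 4.0.16 in R 4.3.3 on 56 libraries in 22 groups: TMM factors, the expression filter by group, 1 coefficient per group, and the quasi-likelihood test with Benjamini-Hochberg adjustment over 16978 genes (34 residual degrees of freedom). Expected counts allow no exact counting interval, so errors are between libraries. Levels are CPM with TMM factors of 59 libraries. Fits without 1 library kept the genes and dispersion trend of the full fit, and a lone library was assumed to vary like the others. DESeq2 1.42.0, other scalings, no count filter, a replicate block and inclusion of the outlying library were alternatives. The fit was tested on simulated data. No 2 libraries of the same group agreed within sampling noise (smallest chi-square per degree of freedom 2.093). Members named were up to 8 of the largest called changes in each direction per dose comparison, up to 4 per difference of dose effects, and a set list of well-known members. A gene that this rule names is not reported here. The members and lists were chosen with earlier results of these data known.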

Additional observations from a re-analysis of the deposited data

Results flagged for a closer look

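The dose effects of Aucklandiae Radix and Polygalae Radix differed in 22 of the 78 ribosomal protein genes by edgeR's quasi-likelihood test of the difference. Among all genes 22.6% were lower and 24% were higher with Aucklandiae Radix. Under total count scaling 62 members were called, and the median dose effect over all genes moved to -0.11 with Aucklandiae Radix and 0.08 with Polygalae Radix. RPL13A differed by -1.0035 on the log2 scale, RPS2 by -0.70, RPL3 by -0.64 and RPS9 by -0.58, all lower with Aucklandiae Radix, and RPS27L by 0.33 in the other direction. RPS27L lost its call without Polygalae Radix high replicate 2 (adjusted p = 0.091) or Aucklandiae Radix high replicate 2 (adjusted p = 0.0619).

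The dose effects of Guibi-tang and Saengmaek-san differed in 35 genes, all lower with Guibi-tang, beside 3.63% of all genes that were lower. Among them were RPL13A (-0.45), RPL28 (-0.44), RPS24 (-0.41) and RPL26 (-0.40). RPL28 and RPL26 each lost the call in 6 of the fits without 1 library.

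The library labelled Saposhnikoviae Radix low replicate 2, which entered no comparison, held 16.8% of its counts in ribosomal protein genes, against 4.99 to 5.90% in the vehicle libraries.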

How the results depend on the processing

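Counts below are ribosomal protein genes called of 78. With the outlying Saposhnikoviae Radix library included, high minus low called 4 for Aucklandiae Radix, 77 (all lower) for Saposhnikoviae Radix and 0 for Polygalae Radix, Menthae Herba, Saengmaek-san and Guibi-tang, and its medium dose called 74. Against Vehicle that fit called 12 for Aucklandiae Radix, 1 for Polygalae Radix and 0 for the other 5 extracts. The differences of dose effects gave 0 for Aucklandiae Radix minus Polygalae Radix, 65 (all higher) for Menthae Herba minus Saposhnikoviae Radix and 0 for Guibi-tang minus Saengmaek-san. With total counts only, high minus low gave 9 for Polygalae Radix (7 higher, 2 lower), 1 for Menthae Herba (lower) and 0 for Saengmaek-san. Against Vehicle it gave 12 for Polygalae Radix, 4 for Menthae Herba (all lower) and 9 for Saengmaek-san (6 higher, 3 lower), and the differences gave 62 for Aucklandiae Radix minus Polygalae Radix and 22 for Guibi-tang minus Saengmaek-san. Without a count filter, high minus low gave 42 for Guibi-tang, 26 for Menthae Herba, 14 for Saengmaek-san and 1 for Saposhnikoviae Radix, and medium minus low 3 for Polygalae Radix, 5 for Saposhnikoviae Radix and 1 for Saengmaek-san. Against Vehicle it gave 41 for Saposhnikoviae Radix, 29 for Soyo-san, 10 for Menthae Herba (4 higher, 6 lower) and 19 for Saengmaek-san, and the differences 35 for Aucklandiae Radix minus Polygalae Radix and 63 for Guibi-tang minus Saengmaek-san. DESeq2's Wald test gave 2 for Saengmaek-san high minus low and 14 against Vehicle, and DESeq2 size factors 0 for Saengmaek-san high minus low. The causes were not tested.

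Without 1 library in turn, high minus low gave 5 to 11 for Polygalae Radix, 25 to 55 for Aucklandiae Radix, 0 to 13 for Menthae Herba, 5 to 34 for Guibi-tang and 0 for Saposhnikoviae Radix, Saengmaek-san and Soyo-san. Medium minus low gave 0 to 1 for Polygalae Radix and 0 for the others. Against Vehicle the counts were 12 to 59 for Polygalae Radix, 64 to 72 for Aucklandiae Radix, 35 to 66 for Guibi-tang, 0 to 45 for Saposhnikoviae Radix, 1 to 39 for Soyo-san, 2 to 22 for Menthae Herba and 1 to 26 for Saengmaek-san. The differences gave 15 to 31 for Aucklandiae Radix minus Polygalae Radix, 0 for Menthae Herba minus Saposhnikoviae Radix and 13 to 48 for Guibi-tang minus Saengmaek-san. Without Aucklandiae Radix high replicate 3 the log2 fold changes of RPS27A (0.016) and RPL39 (0.0015), neither of them called, turned positive; without high replicate 2 they were -0.15 and -0.068.

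High and low libraries of 1 replicate number had deviations from their group means correlated at -0.045 to 0.062, over all tested genes together. These values cannot decide whether replicate numbers pair the samples, which the labels do not state. With the replicate block the Saengmaek-san high minus low count was 0, and of 58 named gene results 4 lost the call. Under total counts the share of higher calls among all genes was 65.1% for Polygalae Radix (45.4% with TMM), 29.5% for Menthae Herba (50.9%), 35.1% for Saposhnikoviae Radix (63.3%) and 20.7% for Saengmaek-san (48.6%).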
